A study of Mus musculus with 6 samples.

Results

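The genes described here are 10 members of the Wnt/β-catenin pathway, chosen by name from 54281 genes in the count table: the transcription factors Tcf7, Tcf7l1, Tcf7l2 and Lef1, their partner Ctnnb1, the scaffold genes Apc, Axin1 and Axin2, and the receptors Lgr4 and Lgr5. They were read in GLUTag cells, a murine enteroendocrine line that expresses proglucagon and secretes GLP-1. The 6 libraries came from cells of a single condition, in DMEM with 1 g/L glucose, GlutaMAX and 10% heat-inactivated FBS, in wells coated with 0.4% Matrigel and harvested after 48 h. Plate 1 held 3 wells of cells at passage 23, plate 2 held 3 of cells at passage 27, and an effect of the plate and one of the passage cannot be told apart. Nothing in the labels says that wells of a plate came from separate cultures, so p-values measure only the spread between these samples. There was no perturbation of the pathway and no other cell type, and the line stands for enteroendocrine cells only as far as its markers go.

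Wnt ligands bind Frizzled receptors with Lrp5 or Lrp6, and this stops the complex of Apc, Axin, Gsk3 and casein kinase 1 from marking β-catenin for degradation. β-Catenin then enters the nucleus and binds the TCF/LEF proteins, which sit on DNA and without it recruit Tle corepressors. In the intestine this pathway maintains the stem cells of the crypt, and Gcg, the proglucagon gene, has been described as a target of β-catenin and Tcf7l2 in intestinal endocrine cells. Much of the regulation is of protein stability and location, which RNA counts do not show.

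Each library was made from 3′ ends of polyadenylated RNA, so a count stands for a transcript regardless of its length. On that basis levels of different genes are set side by side. Whether the 3′ ends of different genes were annotated and captured equally well was not tested, which limits every comparison of levels between genes below. Levels are given as CPM, the counts of a gene per 1000000 counts of its library. The totals lay between 21399987 and 36488198 counts. A count of 0 allows up to 3 counts, which is 0.0822 to 0.14 CPM depending on the library and covers counting error only, and this limit is called the floor below. All 11 enteroendocrine markers were over the floor in every library, with a summed level of 3503 to 3831 CPM on plate 1 and 3643 to 4164 CPM on plate 2. Of 4 intestinal stem cell markers only Lgr5 was over the floor in every library, and Ascl2, a defining stem cell factor, had a count of 0 throughout. None of 4 Paneth cell markers exceeded the floor in every library, and of 4 goblet cell markers only Tff3 did, at 37.8 CPM, while Muc2 stayed at or below 6 counts. Of 5 enterocyte markers Alpi, at 0.659 CPM, and Apoa1, at 0.41 CPM, were over the floor in every library, and of 5 fibroblast markers only Col1a2 was, at 5.87 CPM. The plate 2 columns number their replicates from 1 again and do not say which labelled replicate each holds, so these libraries are called low-total, mid-total and high-total. The mid-total library of plate 2 stood apart from its companions: in log2 of TMM-scaled CPM + 1 (TMM, the trimmed mean of M-values, corrects for a few genes that take many counts), 866 of 15669 tested genes (5.53%) were lower in it by more than 1 than their mean in the other 2 and 21 (0.134%) were higher by more than 1. Values that rest on it are given with and without it.

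The 4 TCF/LEF genes were at or near the floor. Tcf7l2 (ENSMUSG00000024985, chr19:55741820-55933654 on GRCm38, plus strand), the family member that carries the best-known common risk locus for type 2 diabetes in humans, had 0, 1 and 3 counts in replicates 1, 2 and 3 of plate 1. On plate 2 it had 7, 5 and 10 counts in the low-total, mid-total and high-total library. That was over the floor in 3 of the 6 libraries, with a mean of 0.145 ± 0.109 CPM (SD, n = 6), and all 3 were plate 2 libraries.

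The plates did not overlap in CPM for Tcf7l2, with plate 2 higher, which also held for 35.2% of the 15669 tested genes. They did overlap for Tcf7l2 once the counts were scaled by TMM, with 0.1505 CPM in the highest plate 1 library and 0.1501 CPM in the lowest plate 2 library. It did not pass the filter on low counts of the test between plates. With no such filter, edgeR gave a log2 fold change of plate 2 over plate 1 of 1.62 (SE 1.3, adjusted p = 0.676). Within 10 kb of the gene the annotation placed no other gene than Ppnr, which lies within the span of Tcf7l2 on the same strand and had at most 1 count. Whether transcripts of Tcf7l2 ended outside the annotated 3′ ends, where they would not have been counted, was not tested.

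Tcf7 (ENSMUSG00000000782, chr11:52252371-52283014, minus strand), which encodes TCF1, had the highest level of the family. It had 13, 11 and 1 counts on plate 1 and 15, 8 and 15 counts on plate 2, a mean of 0.38 ± 0.194 CPM (SD, n = 6), and only replicate 3 of plate 1 was below the floor. Tcf7l1 (ENSMUSG00000055799, chr6:72626378-72789254, minus strand), a family member known mainly as a repressor, had 0, 7 and 0 counts on plate 1 and 10, 7 and 10 on plate 2, a mean of 0.194 ± 0.156 CPM (SD, n = 6). Lef1 (ENSMUSG00000027985, chr3:131110471-131224356, plus strand) had 2, 1 and 0 counts on plate 1 and no count on plate 2, and it was not detectable over the floor in any library. The 2 plates overlapped for Tcf7 and Tcf7l1. Gm15402 and Gm15401 lie antisense within Tcf7l1 and had 15 to 31 and 4 to 8 counts per library, against at most 10 for Tcf7l1 itself.

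Summed over the 4 genes, the family had 15, 20 and 4 counts on plate 1 and 32, 20 and 35 on plate 2, or 0.74 ± 0.333 CPM (SD, n = 6). Of that sum Tcf7 made up 49.4% ± 20.8, Tcf7l2 25.9% ± 26.6, Tcf7l1 21.6% ± 16.9 and Lef1 3.06% ± 5.42 (SD, n = 6). The share of Tcf7l2 ran from 0% to 75.0% between libraries, the latter being 3 of 4 counts in replicate 3 of plate 1. Without that replicate its mean share was 16.1%, below the 26.0% of Tcf7l1, and without replicate 1 of plate 1 the share of Lef1 was 1.0%, so the shares within this family were poorly determined. The level of Tcf7l2 was compared with that of the others by an exact permutation test (two-sided, flipping the sign of each library) of the within-library difference in log2(CPM + 1), whose smallest p for 6 libraries is 0.03125. Against Tcf7 the difference was -0.26 ± 0.274 (SD, n = 6; exact p = 0.09375, or 0.1406 after Benjamini-Hochberg adjustment over the 6 gene pairs compared). Against Tcf7l1 it was -0.06 ± 0.17 (SD, n = 6; exact p = 0.5, adjusted 0.5), and against Lef1 it was 0.16 ± 0.183 (SD, n = 6; exact p = 0.125, adjusted 0.15). Tcf7l2 had the same count as Tcf7l1 in 2 libraries and as Lef1 in 1, and with such ties the smallest p is 0.125 and 0.0625, so these 2 comparisons could not pass 0.05. The sizes of these 3 differences depend on the pseudocount, since all levels are below 1 CPM: with 0.1 and 5 CPM in place of 1 they were -0.96 and -0.06 against Tcf7, -0.16 and -0.01 against Tcf7l1 and 0.91 and 0.03 against Lef1. The difference from Tcf7l1 was -0.0015 without replicate 2 and -0.10 without replicate 3 of plate 1. A difference between Tcf7l2 and Tcf7 was not detectable at these counts, which does not show that their levels were equal. Tcf7 was above Tcf7l1 in 6 of 6 libraries, a pair that was not among those tested.

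Gcg (ENSMUSG00000000394, chr2:62474530-62483650, minus strand) had 3159, 2530 and 3185 CPM on plate 1 and 4188, 2914 and 4519 CPM on plate 2. It was thus abundant in every library, at 3416 ± 771 CPM (SD, n = 6), and the plates overlapped. For each count of any TCF/LEF gene there were between 2860 and 17000 counts of Gcg, the upper end being replicate 3 of plate 1 with its 4 TCF/LEF counts, without which it is 5050.

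**Figure D1:**
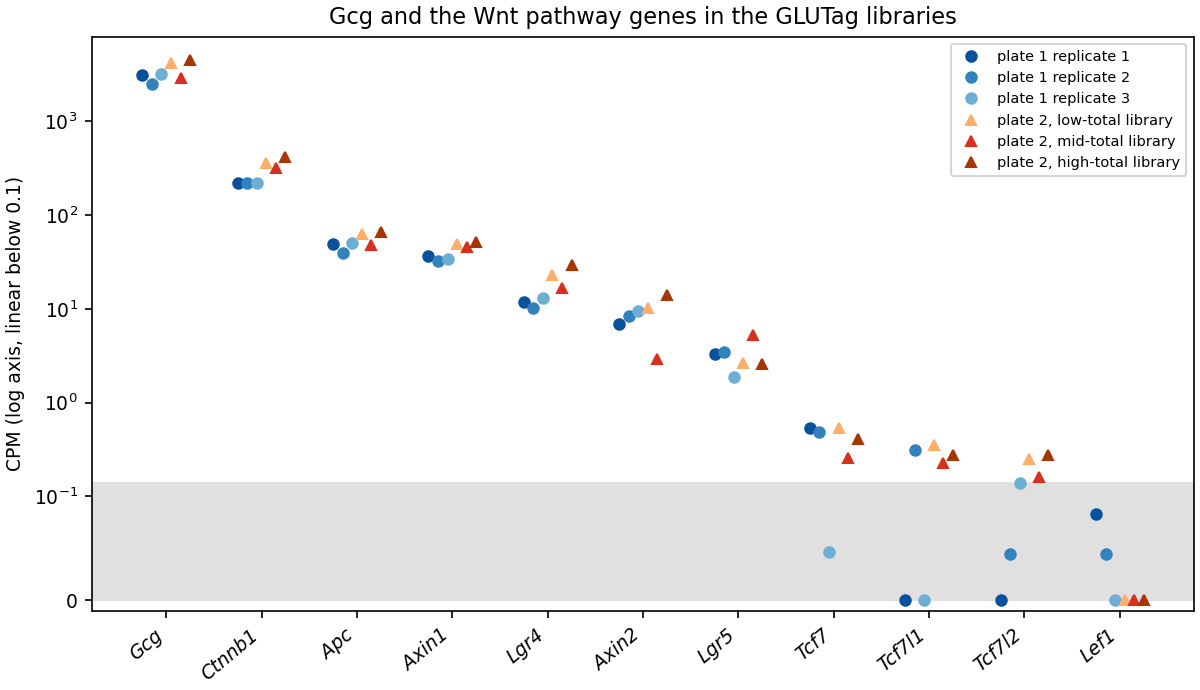
CPM of Gcg and of the 10 pathway genes in each library, on a log axis that is linear below 0.1, with 1 circle per plate 1 library and 1 triangle per plate 2 library. Grey marks the floor of 3 counts in the shallowest library (0.14 CPM). Ctnnb1 sits between 218 and 414 CPM, whereas Tcf7l2, Tcf7l1 and Lef1 reach into the grey band or 0. Tcf7 reaches into the grey band in replicate 3 of plate 1.

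The 250 bases before the annotated start are given for Gcg and for Axin2, the member best known as a target of the pathway. Both are from RefSeq on GRCm38.p6 and run 5′ to 3′ on the strand of the gene, and capitals mark the TCF/LEF core CTTTG or its reverse complement CAAAG, searched on both strands. The windows are chr2:62483654-62483903 on the minus strand for Gcg and chr11:108920099-108920348 on the plus strand for Axin2.

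Gcg: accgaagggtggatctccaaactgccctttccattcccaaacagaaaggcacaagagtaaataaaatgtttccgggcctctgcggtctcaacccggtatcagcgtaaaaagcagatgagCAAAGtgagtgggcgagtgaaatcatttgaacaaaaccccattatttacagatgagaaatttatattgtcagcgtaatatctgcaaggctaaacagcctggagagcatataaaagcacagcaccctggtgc
Axin2: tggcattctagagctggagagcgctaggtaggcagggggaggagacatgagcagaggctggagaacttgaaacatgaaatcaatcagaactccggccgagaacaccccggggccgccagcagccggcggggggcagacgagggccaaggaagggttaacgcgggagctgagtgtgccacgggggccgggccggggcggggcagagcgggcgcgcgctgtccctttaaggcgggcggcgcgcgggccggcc

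The Gcg window held 1 core, starting 131 bases before the start of the gene, and the Axin2 window held none. Bases outside the windows were not searched, so this does not show that Axin2 lacks such sites. A core was found in 48.6% of 32817 windows of this length in the RefSeq table. The longer form CTTTGAT, or ATCAAAG on the other strand, which contains the core, was in neither window and in 3.21% of all windows. For 7 of the 10 members the table held 13 windows, of which 7 (53.8%) had the core and 0 the longer form. Some windows of a gene overlap, as do 2 of Lef1 that share a core, so this share counts a site more than once. All 4 windows of Lef1, both windows of Tcf7l2 and the window of Tcf7l1 had it, and those of Tcf7, Ctnnb1, Axin2 and Lgr4 did not. Apc, Axin1 and Lgr5 had no entry. Such a match is a description of letters and not of a bound site.

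Ctnnb1 (ENSMUSG00000006932, chr9:120929216-120960507, plus strand), which encodes β-catenin, had the highest level of the 10 genes. Its level was 219, 218 and 219 CPM in replicates 1, 2 and 3 of plate 1 and 360, 315 and 414 CPM in the low-total, mid-total and high-total libraries of plate 2. All plate 2 libraries were above all plate 1 libraries, which in unscaled CPM also held for 35.2% of the 15669 tested genes. The mean was 291 ± 85.1 CPM (SD, n = 6), from 4677 to 15110 counts, which put Ctnnb1 at percentile 98.0 of the 27022 genes that had any count. Ulk4, on the opposite strand, covers the 3′ end of Ctnnb1 and had 82 to 219 counts.

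Apc (ENSMUSG00000005871, chr18:34220924-34322552, plus strand), the scaffold that holds β-catenin in the destruction complex, had 49.7, 39.9 and 50.5 CPM on plate 1 and 62.5, 47.7 and 66.4 CPM on plate 2. Its mean was 52.8 ± 9.87 CPM (SD, n = 6), and the plates overlapped through the mid-total library of plate 2. Axin1 (ENSMUSG00000024182, chr17:26138688-26195811, plus strand), the constitutive scaffold of the same complex, had 37.01, 32.1 and 33.8 CPM on plate 1 and 49.2, 45.3 and 52.2 CPM on plate 2. Here the plates did not overlap, with plate 2 higher, as for 35.2% of tested genes in CPM. The mean of Axin1 was 41.6 ± 8.42 CPM (SD, n = 6).

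Axin2 (ENSMUSG00000000142, chr11:108920349-108950783, plus strand), a negative feedback gene induced by β-catenin in many tissues, had 6.88, 8.48 and 9.44 CPM on plate 1 and 10.2, 2.94 and 14.0 CPM on plate 2. The lowest value and the highest value were both on plate 2, and the low value of 91 counts was in the mid-total library. The mean was 8.66 ± 3.68 CPM (SD, n = 6), and 9.8 ± 2.67 CPM (SD, n = 5) without that library.

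Lgr4 (ENSMUSG00000050199, chr2:109917647-110014257, plus strand) encodes an R-spondin receptor that is expressed in many epithelia and that raises Wnt receptor levels at the membrane. It had 11.9, 10.2 and 13.1 CPM on plate 1 and 22.7, 16.8 and 29.3 CPM on plate 2, a mean of 17.3 ± 7.35 CPM (SD, n = 6). The plates did not overlap for Lgr4, with plate 2 higher, as for 35.2% of tested genes in CPM. The paralogue Lgr5 (ENSMUSG00000020140, chr10:115450311-115587780, minus strand), the marker of crypt stem cells, had 3.3, 3.46 and 1.9 CPM on plate 1 and 2.66, 5.25 and 2.55 CPM on plate 2. The highest library was the mid-total one of plate 2, and the plates overlapped. The mean of Lgr5 was 3.19 ± 1.16 CPM (SD, n = 6), and 2.77 ± 0.629 CPM (SD, n = 5) without that library. The counts of Lgr5, 41 to 162 after rounding, were the only ones among the members that were not whole in the deposited table, as arises where reads are shared out between transcripts of different genes. Bulk libraries do not tell apart a small fraction of cells with much Lgr5 RNA and a low level in all cells.

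In order of level the members were Ctnnb1, Apc, Axin1, Lgr4, Axin2, Lgr5, Tcf7, Tcf7l1, Tcf7l2 and Lef1. Neighbours from Ctnnb1 to Axin2 kept their order in 6 of 6 libraries, with mean differences in log2(CPM + 1) of 2.41 between Ctnnb1 and Apc, 0.34 between Apc and Axin1, 1.28 between Axin1 and Lgr4 and 0.94 between Lgr4 and Axin2. Axin2 was above Lgr5 in 5 of 6 libraries, by 1.14 ± 0.994 (SD, n = 6), and the exception was the mid-total library of plate 2, without which the difference was 1.501. Lgr5 was above Tcf7 in 6 of 6 libraries, by 1.57 ± 0.381 (SD, n = 6). Tcf7 was above Tcf7l1 in 6 of 6 libraries, by 0.21 ± 0.213 (SD, n = 6). Below Tcf7 the order of Tcf7l1, Tcf7l2 and Lef1 was not resolved, since Tcf7l1 exceeded Tcf7l2 in 3 libraries and Tcf7l2 exceeded Lef1 in 4.

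Among paralogues 1 gene predominated in both the Axin and the Lgr family. Axin1 held 82.9% ± 5.94 (SD, n = 6) of the Axin counts, from 78.2% to 93.9%, and was 3.58 to 15.4 times as high as Axin2. The mean difference in log2(CPM + 1) was 2.23 ± 0.684 (SD, n = 6), with Axin1 higher in 6 of 6 libraries. Without the mid-total library of plate 2, which gave the upper end, the share was 80.7%, the highest ratio 5.38 and the mean difference 1.96. Lgr4 held 82.5% ± 7.45 (SD, n = 6) of the counts of Lgr4, Lgr5 and Lgr6, and was 2.95 to 11.5 times as high as Lgr5. That difference was 2.08 ± 0.719 (SD, n = 6) in log2(CPM + 1), 1.73 on plate 1 and 2.43 on plate 2. Apc was 1.05 to 1.49 times as high as Axin1, and 1.24 to 1.49 times without the mid-total library. In each of these 3 pairs the sign was the same in 6 of 6 libraries, which gave the smallest exact p of 0.03125 and an adjusted p of 0.0625 over the 6 pairs, so none passed 0.05 after adjustment.

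Around the members the pathway was represented unevenly from role to role. Among 54281 genes, 15208 were over the floor in every library, and among the 10 members 6 were: Ctnnb1, Apc, Axin1, Axin2, Lgr4 and Lgr5. Of 19 Wnt ligand genes 5 were over the floor in every library and 7 had no count in any, namely Wnt2, Wnt3a, Wnt7b, Wnt8a, Wnt8b, Wnt9b and Wnt16. Wnt5a, a ligand known mainly for β-catenin-independent signalling, had 6.76 ± 1.85 CPM and Wnt4 3.66 ± 0.707 CPM (SD, n = 6), whereas Wnt3, the Paneth cell ligand of the crypt, was below the floor in every library. Both genes needed for ligand secretion were present, the carrier Wls at 14.8 ± 2.2 CPM and the acyltransferase Porcn at 4.36 ± 1.34 CPM (SD, n = 6).

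Of 15 receptor and co-receptor genes 10 were over the floor in every library. Ryk, an atypical Wnt receptor, had 115 ± 16.5 CPM, Fzd3 had 54.3 ± 15.7 CPM and the co-receptor Lrp6 had 26.7 ± 5.46 CPM (SD, n = 6). The other co-receptor, Lrp5, had a mean of 0.124 CPM, close to the floor. Among the R-spondins and the genes of receptor turnover, 3 of 7 were over the floor in every library. These were the ligands Rspo1 at 2.12 ± 0.499 CPM and Rspo2 at 1.19 ± 0.427 CPM, and the receptor-removing ligase Znrf3 at 1.34 ± 0.212 CPM (SD, n = 6), whereas its paralogue Rnf43, Rspo3 and Rspo4 had no count.

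The cytoplasmic and nuclear machinery was over the floor almost throughout. All 14 genes of the destruction complex and Dishevelled list were over it in every library, with a median of 42.4 CPM. The kinases Gsk3b, Csnk1a1 and Csnk1d were highest, at 144 ± 27.2, 128 ± 20.3 and 99.98 ± 14.6 CPM (SD, n = 6). Of 15 nuclear partners 14 were over the floor, led by Tle5, a short relative of the Tle corepressors, at 139 ± 14.3 CPM, the β-catenin inhibitor Ctnnbip1 at 128 ± 16.5 CPM and the corepressor Ctbp1 at 113 ± 13.8 CPM (SD, n = 6). Each of these 3 was thus more abundant than the 4 TCF/LEF genes combined, which had 0.74 CPM. β-Catenin also binds cadherins, and of 6 junctional genes 5 were over the floor: Cdh2, which encodes N-cadherin, had 111 ± 25.7 CPM, Ctnna2 52.6 ± 3.89 CPM and Jup 37.2 ± 7.23 CPM (SD, n = 6), while Cdh1, which encodes E-cadherin, had a mean of 0.0602 CPM.

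Of 14 secreted and membrane inhibitors 3 were over the floor in every library and 7 never exceeded it, with Apcdd1 at 13.6 ± 0.955 CPM and Sost at 3.26 ± 0.473 CPM (SD, n = 6), and Dkk4, Sfrp1, Sfrp2 and Sfrp4 had no count. Of 12 target genes besides Axin2 and Lgr5, 4 were over the floor in every library and 6 never exceeded it. The stem cell adhesion gene Cd44 had 6.26 ± 0.78 CPM, the crypt receptor genes Tnfrsf19 5.33 ± 1.46 CPM and Ephb2 4.36 ± 1.53 CPM (SD, n = 6). The widely used readouts Ccnd1, Nkd1 and Notum were at or below the floor in every library, Sox9 and Ascl2 had no count, and Myc had a mean of 0.603 CPM. Axin2 at 8.66 CPM was above each of these 12 by its mean.

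**Figure D2:**
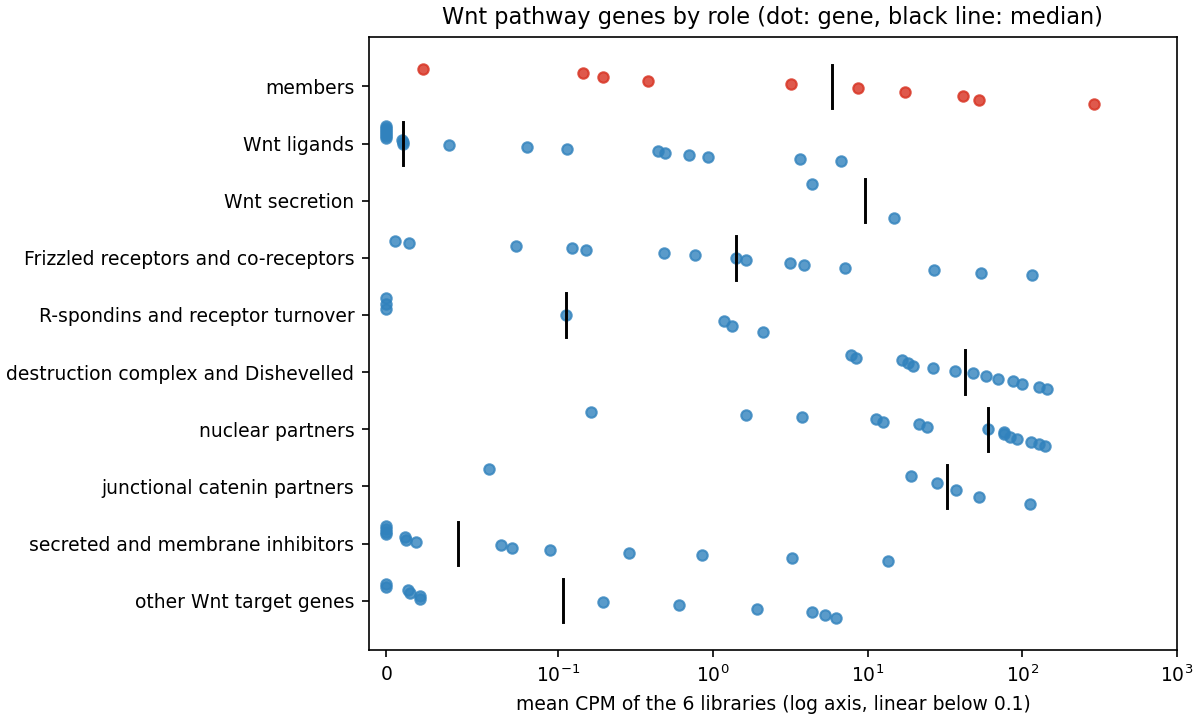
Mean CPM over the 6 libraries of each member (red) and of each other Wnt pathway gene (blue) by role, on a log axis that is linear below 0.1, with a black line at the median of each list. The destruction complex (median 42.4 CPM) and nuclear partners (median 60.0 CPM) sit to the right, while the medians of ligands, inhibitors and targets lie near 0.01, 0.04 and 0.11 CPM.

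The plates gave the only comparison that the labels allow, that of passage 27 with passage 23. None of the 7 members that passed the filter on low counts (those other than Tcf7l1, Tcf7l2 and Lef1) passed an adjusted p of 0.05 in edgeR's quasi-likelihood test with TMM scaling, beside 0.185% of the 15669 genes tested (29 genes, 2 of them, or 0.0128%, higher and 27 lower on plate 2). Without adjustment, 2520 genes (16.1% of those tested) and 2 of the 7 members, Ctnnb1 and Lgr4, had a p under 0.05 in edgeR. Before scaling, the plates did not overlap for Ctnnb1, Axin1 and Lgr4, all higher on plate 2, and 35.2% of tested genes were placed in that way. After TMM scaling the same 3 members still did not overlap, beside 12.8% of tested genes. The noncoding RNA Bc1 took 9.74% to 12.0% of the counts on plate 1 and 3.44% to 4.77% on plate 2. The median log2 fold change over all tested genes was 0.299 by total count alone and 0.03 after TMM scaling. How much of that shift came from Bc1 was not tested.

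Ctnnb1 averaged 219 ± 0.892 CPM in the plate 1 libraries and 363 ± 49.6 CPM in those of plate 2 (SD, n = 3 each). After TMM scaling its log2 fold change was 0.46 (SE 0.121, adjusted p = 0.135, edgeR). Lgr4 averaged 11.7 ± 1.45 CPM in the plate 1 libraries and 22.9 ± 6.26 CPM in those of plate 2 (SD, n = 3 each), a log2 fold change of 0.70 (SE 0.204, adjusted p = 0.16, edgeR). Neither passed the threshold in this main fit, with TMM scaling, the filter on low counts and all 6 libraries. When the mid-total library of plate 2 was left out, both passed it in edgeR, Ctnnb1 with 0.52 (SE 0.0914, adjusted p = 0.00244) and Lgr4 with 0.84 (SE 0.148, adjusted p = 0.00223), in a fit that called 12.0% of 15894 genes, 4.2% of the 15894 being higher on plate 2. No member passed in DESeq2, which called 4.41% of genes, or in limma-voom, which called 0.0638%. Ctnnb1 and Lgr4 also passed in edgeR with no filter on low counts, where 2.02% of genes were called and 0.944% as higher, at an adjusted p of 0.0426 and 0.017. With scaling by the total count alone, where 9.46% were called, 9.01% as higher, they passed together with Axin1, at 0.0273, 0.0353 and 0.0407 for Ctnnb1, Lgr4 and Axin1. Over all 12 alternatives, the fold change ran from 0.36 to 0.73 with an adjusted p of 0.00244 to 0.429 for Ctnnb1, and from 0.48 to 0.97 with 0.00223 to 0.452 for Lgr4.

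Axin1 averaged 34.3 ± 2.48 CPM in the plate 1 libraries and 48.9 ± 3.49 CPM in those of plate 2 (SD, n = 3 each), and a log2 fold change of 0.24 (SE 0.121, adjusted p = 0.37, edgeR) after TMM scaling. Over the alternatives it ran from 0.19 to 0.51. For Apc the log2 fold change was 0.07 (SE 0.151, adjusted p = 0.878, edgeR), and 0.16 without the mid-total library. That of Axin2 was -0.14 (SE 0.516) with all libraries and 0.25 (SE 0.188) without the mid-total library of plate 2, with adjusted p of 0.932 and 0.449 in edgeR. Lgr5 went from 0.00 (SE 0.363) to -0.46 (SE 0.315) on the same omission, with adjusted p of 0.998 and 0.393 in edgeR. Tcf7 had -0.13 (SE 0.738, adjusted p = 0.956, edgeR), and 0.06 without that library. For Apc, Axin2, Lgr5 and Tcf7 the errors were larger than the fold changes themselves with all libraries.

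**Figure D3:**
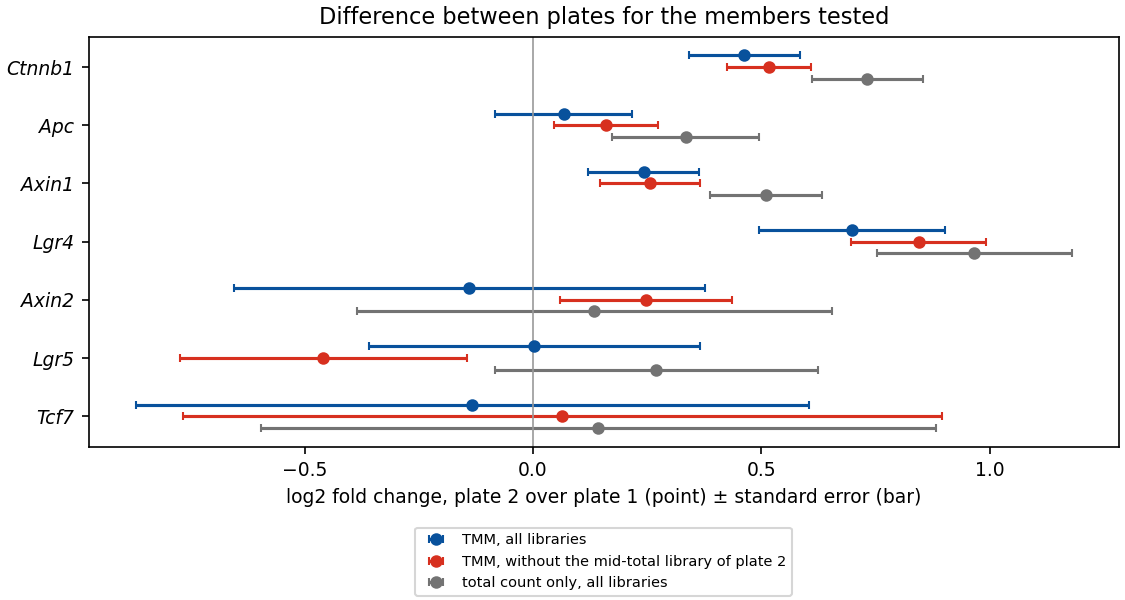
Log2 fold change of plate 2 over plate 1 (points) with its standard error (bars) for the 7 members tested with edgeR, with TMM scaling and all libraries, with TMM scaling without the mid-total library of plate 2, and by total count alone. Ctnnb1, Lgr4 and Axin1 lie to the right of 0 in all 3 fits, whereas Axin2 moves from -0.14 to 0.25 and Lgr5 from 0.00 to -0.46 when that library is left out.

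Of the other pathway genes, those that could be tested did not pass this test either. In the 9 lists around the members, 62 of 104 genes could be tested. In edgeR 0 of these 62 passed an adjusted p of 0.05, beside 0.185% of all tested genes. At so low a share the absence of calls says little about these genes. Without adjustment 5 had a p under 0.05, which is 8.06% beside 16.1% of all tested genes. Median log2 fold changes were 0.27 for the 5 target genes tested, 0.26 for the 2 secretion genes, 0.20 for the 6 ligands, 0.11 for the 10 receptors, 0.10 for the 14 destruction complex and Dishevelled genes and for the 5 junctional genes. They were 0.02 for the 14 nuclear partners, -0.01 for the 3 R-spondin and receptor turnover genes and -0.23 for the 3 inhibitors, beside 0.03 for all tested genes.

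In the mid-total library of plate 2 the members moved in opposite directions. With TMM scaling, Axin2 was at 2.73 CPM there and at a mean of 11.0 CPM in the other 2 plate 2 libraries, a difference of -1.68 in log2 of scaled CPM + 1, which is percentile 1.72 among the 15669 tested genes. Lgr5 was at 4.88 against 2.36 CPM, a difference of 0.81 at percentile 99.4. Both are genes of crypt stem cells that β-catenin is known to regulate, and here they stood near opposite ends of the distribution. The other tested members were in between, with -0.57 for Lgr4, -0.39 for Apc, -0.26 for Ctnnb1, -0.20 for Tcf7 and -0.12 for Axin1. In the same library the enteroendocrine transcription factor gene Insm1 differed by -2.41, the granule protein gene Scg2 by -1.73 and the hormone gene Cck by 0.91. The catenin gene Ctnnd1, whose product binds cadherins, differed by -2.11. The other enteroendocrine markers went both ways. Chga differed by 0.67, Scg5 by 0.35, Chgb by 0.34, Pcsk1 by 0.23 and Isl1 by 0.04, but Neurod1 by -0.52, Syp by -0.36 and Pax6 by -0.16. All of these genes were named after their values were seen. With 1 library on this side there is no test of these differences.

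**Figure D4:**
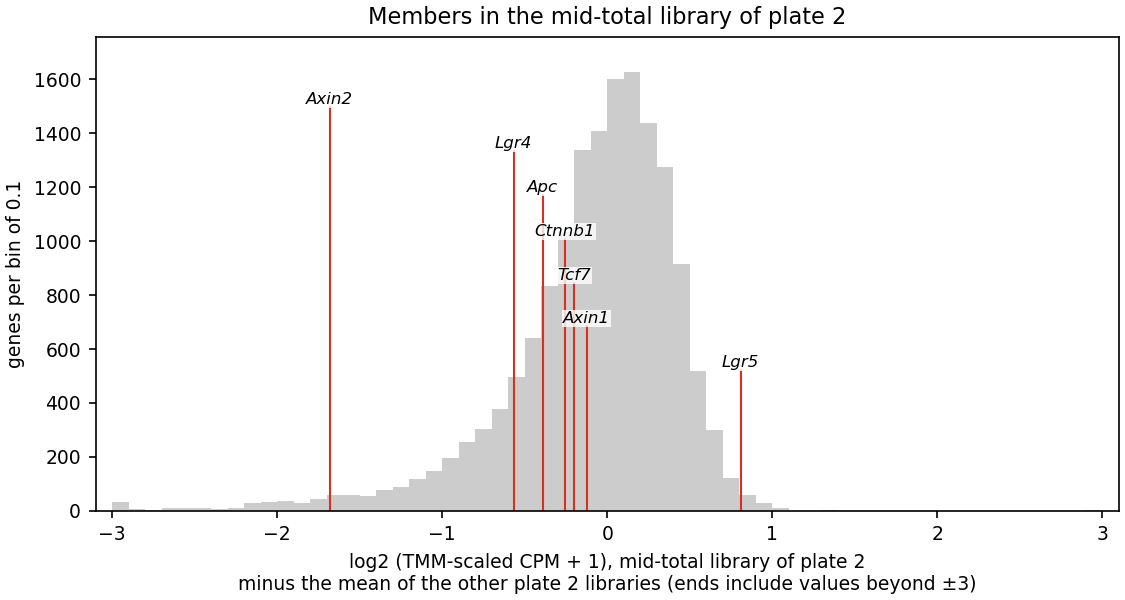
Distribution over 15669 tested genes of the difference in log2 of TMM-scaled CPM + 1 between the mid-total library of plate 2 and the mean of the other 2 plate 2 libraries (grey bars, genes per bin of 0.1), with a red line for each member tested. Axin2 lies at -1.68 in the lower tail and Lgr5 at 0.81 in the upper tail.

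The genes whose pattern over the 6 libraries was closest to that of a member were found by the root-mean-square difference of centred log2(CPM + 1), among the 12360 genes that reached 1 CPM in all libraries. For Ctnnb1 they were Jak2, C2cd4c, Xpo1, Nsmaf and Rbm18, from 0.0186 for Jak2 to 0.0582 for Rbm18, where Ctnnb1 itself had an SD of 0.414. For Tcf7l2 they were Ankrd39, 9130230N09Rik, Mrpl49, Ate1 and 4933440N22Rik, from 0.0264 to 0.0401, beside an SD of 0.138 that came from 0 to 10 counts. The list was not stable for either gene: when a library was left out, 1 or 2 of the 5 genes stayed for Ctnnb1 and 0 to 2 for Tcf7l2, and with a pseudocount of 0.1 CPM 0 stayed for Tcf7l2.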

How the data were processed

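The labels describe 6 GLUTag wells sequenced from the 3′ end of polyadenylated RNA (QuantSeq FWD). The authors trimmed reads with Trim Galore 0.6.4, assigned them to GRCm38 transcripts with Salmon 1.5.1, uncorrected for length, and deposited the sums per gene, expected counts that can be fractional and carry no normalization. CPM was computed from these, and edgeR and DESeq2 received them rounded to the nearest whole count. Gene positions are from GENCODE M21 on GRCm38, whereas the authors used M23, and 54107 of 54281 identifiers matched.

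The test between plates was the robust quasi-likelihood test of edgeR 4.0.16 in R 4.3.3, after filterByExpr and TMM, with Benjamini-Hochberg adjustment and a threshold of 0.05. DESeq2 1.42.0, limma-voom (limma 3.58.1), other scalings and filters, and the omission of each library were alternatives. Gene pairs were compared within libraries by exact permutation in scipy 1.17.1. In simulated data with the totals and means of the real libraries, edgeR recovered 44.7% of 2-fold and 95.3% of 4-fold changes between plates, with 3.9% false calls. On the same simulated data DESeq2 gave 9.13% false calls and limma-voom 3.66%. The simulation gave every gene the same dispersion and held no library that stood apart from its plate, unlike the real data. These rates therefore do not measure the power or the error of the real test between plates. No 2 libraries agreed within sampling noise (lowest chi-square per gene 10.2). That comparison covers counting error only and does not show that the wells were separate cultures. All 6 libraries were counted separately.

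The members and lists were chosen with earlier results of these data known. The text names all members, the 3 highest genes of each list with at least 1 CPM, some of the listed genes without counts, Gcg, and the 5 genes most like Tcf7l2. The further list genes at the floor, the marker and neighbouring genes, Bc1, the genes most like Ctnnb1 and those of the mid-total library of plate 2 were chosen after their values were seen. Protein sequences were not used here.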

Additional observations from a re-analysis of the deposited data

Results flagged for a closer look

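Library totals and the CPM of every member or list gene with a mean of at least 10 counts, 71 measures in all, were examined over the 6 libraries for a highest or lowest value far from the rest, and 3 stood out, none of them a member. Chance alone gives about 1 in 20, or 3.55 of 71. The receptor gene Fzd1 had 3.32 CPM in the high-total library of plate 2 and 0.42 to 1.46 CPM in the others. The corepressor gene Tle3 had 15.0 CPM in the mid-total library of plate 2 and 21.6 to 24.1 CPM in the others. In that library the crypt receptor gene Ephb2 had 7.21 CPM, against 2.65 to 4.35 CPM in the others.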

How the results depend on the processing

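The number of genes past an adjusted p of 0.05 between plates, 29 in edgeR, was 584 with DESeq2, 10 with limma-voom, 1482 by total count alone and 545 with no filter on low counts. It ran from 0 to 1911 when a library was left out: 0 without replicate 1 of plate 1 (1611 genes with an unadjusted p under 0.05) and without the low-total library of plate 2 (2121 genes), 2 and 6 without replicates 2 and 3 of plate 1, 9 without the high-total library of plate 2 and 1911 without the mid-total one. It was 34 with DESeq2 size factors and 29 with a minimum of 10 counts. The log2 fold change of 4 members changed sign, with no call and for a cause that was not tested. By total count alone it was 0.1343 for Axin2, 0.1433 for Tcf7, 0.3341 for Apc and 0.2703 for Lgr5, with limma-voom 0.2673 for Tcf7 and -0.0525 for Lgr5, with DESeq2 -0.0178 and with its size factors in edgeR -0.0183 for Lgr5. When a library was left out it ran from -0.6125 to 0.2484 for Axin2, from -0.6439 to 0.2755 for Tcf7, from -0.029 to 0.1599 for Apc and from -0.4589 to 0.1901 for Lgr5. Ctnnb1, Lgr4 and Axin1 kept their sign in all 12 alternatives. Levels and shares moved by less than 1 SD, which is as large as the value itself for Lef1 and for the share of Tcf7l2: without replicate 1 of plate 1 Lef1 went from 0.0213 to 0.00884 CPM and from 3.06% to 1.0% of its family, and without replicate 3 of plate 1 Tcf7l2 went from 25.9% to 16.1%. Gene pairs kept their direction in all alternatives and were tested only under the other pseudocounts and TMM, where no exact p crossed 0.05. With a library left out the smallest exact p is 0.0625. No paired analysis was run. Plate 1 and plate 2 have no replicate number in common in the labels. Nothing ties the numbers that restart in the plate 2 columns to wells of plate 1. At no more than 15 counts a library, changes in the TCF/LEF genes could not be resolved.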
